A study of Saccharomyces cerevisiae with 2 samples.

Results

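Open reading frames (ORFs) that carry many transcripts on the opposite strand were examined in budding yeast without SET2. An ORF was taken from the first base of its start codon to the last base of its stop codon, introns included. An antisense molecule was an RNA on the other strand that overlapped this span by at least 1 nt and overlapped no ORF on its own strand. ORFs were selected on this count alone, with a minimum of 50 molecules, and 245 of 6002 nuclear protein-coding ORFs met this minimum, which was 4.08% of all ORFs. Since the antisense count made the choice, that count is given below as a description only.

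The study sequenced transcript isoforms (TIF-Seq) in 1 Saccharomyces cerevisiae group of 2 biological replicate cultures. The strain carried a SET2 deletion made with kanMX4 in the laboratory background BY4741, and the cells grew to mid-log phase at OD 1 in YPAD, a rich medium that holds 1% glucose. TIF-Seq reads the cap site of an RNA together with its poly(A) site, so every count belongs to a pair of start and end positions. The authors' table holds 1 count for both cultures together, so no value has an SD, and no strain with SET2 was analysed here. The table held 6074514 molecules in 510263 isoforms, an isoform being a distinct pair of start and end. SET2 itself had 0 sense and 0 antisense molecules. The labels mention no molecular identifiers, so copies of a molecule may have been counted. The 95% Wilson intervals given with shares treat every molecule or ORF as independent. They cover counting error only, and not such copies, the spread between ORFs or that between cultures.

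Set2 travels with elongating RNA polymerase II and methylates lysine 36 of histone H3 over the bodies of genes. This mark recruits the histone deacetylase complex Rpd3S, which keeps coding chromatin closed to initiation, and yeast lacking Set2 is known for transcripts that start inside genes. Antisense RNA in yeast also arises from nucleosome-depleted regions between genes, because many yeast promoters fire in both directions. Known antisense RNAs of yeast lie over regulated genes such as PHO84, IME4 and GAL10.

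The sequences below show the most used antisense start at 10 of these ORFs. Each holds the 20 bases before that start and the 10 bases from it onward, read 5′ to 3′ on the antisense strand from the R64 RefSeq genome. Capitals mark positions -1 and +1, where +1 is the first base of the RNA. Start sites of yeast mRNAs usually have a pyrimidine at -1 and a purine at +1, called the initiator dinucleotide here. LSB6, UPS3 and PLN1 were chosen for antisense RNA that starts past the stop codon.
LSB6, chrX:239122-239151, minus strand: ctatatgctaaagtagagtTAtgatttctt
UPS3, chrIV:831747-831776, plus strand: gatttatatcaagatgacaCGagtttgcaa
PLN1, chrXI:524134-524163, plus strand: aatagatgaaataatagaaTAataacaaat
NRG2, YCH1, HSF1 and MER1 follow for antisense RNA that starts inside the ORF.
NRG2, chrII:370525-370554, plus strand: gtgatgttttcatcaagggTAtcagggttt
YCH1, chrVII:905313-905342, minus strand: ctacctggaaaggctccctCAgcgtagtag
HSF1, chrVII:371011-371040, minus strand: acccttgtacttccctcacTAgtgttattg
MER1, chrXIV:251715-251744, minus strand: tctataaatccaaagtaatTAatgcagact
RPL31A, EFM3 and ODC2 are shown because their antisense RNA starts at the annotated first base of a small nucleolar RNA (snoRNA) gene.
RPL31A, chrIV:323462-323491, minus strand: aagcgaatgaattatggacTTttaatgatg
EFM3, chrX:663729-663758, plus strand: gtttccttccgaaaaaaagTAactttgtcc
ODC2, chrXV:759520-759549, minus strand: tcaaattttaaaaaaaaacCAtacaaaatt
Of these 10 starts, the RPL31A start is the exception without the initiator dinucleotide.

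The 245 ORFs held 23970 distinct antisense molecules in 6312 isoforms. These made up 38.9% (38.5 to 39.3) of the 61628 antisense molecules over all ORFs and 0.395% of all molecules in the table. These shares follow in part from selecting on the count, and 3841 ORFs had at least 1 antisense molecule. Per ORF the count ran from 50 to 544 with a median of 74 and quartiles of 58 and 108. In total 342 molecules were counted for 2 ORFs of the set, and they tied 10 ORFs into 5 pairs: SHU1 with YHL005C, AMF1 with RDR1, RPA14 with YDR157W, RTS1 with YOR015W and YPS1 with YPS3. Summed over ORFs, the count was 24312, and the shares of molecules below use this sum. Every antisense molecule of the set had at least 1 of its 30-nt end tags only once in the genome, so no molecule rested on repeated sequence at both ends.

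At the minimum itself lay 10 ORFs with exactly 50 molecules: YCR085W, SWF1, TRR1, UGA1, DPH1, MAD3, YJR115W, ADY4, ASA1 and LUG1. Just under it lay 9 ORFs with 49: YBL055C, CDC50, NAT1, GTB1, COG1, YGR146C-A, RSF1, RGS2 and RTC5. ORFs on either side of the minimum therefore differed by 1 molecule.

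Antisense RNA was made of many isoforms that shared a few start and end zones. An ORF had a median of 22 antisense isoforms (8 to 117), 14 start sites and 15 end sites. Within 25 nt of the most used start lay a median of 52.4% of an ORF's antisense starts, with a range of 12.5 to 100%. Within 25 nt of the most used end lay a median of 57.5% of its ends. ODC2, the gene of a mitochondrial 2-oxodicarboxylate carrier, had the tightest starts, since all 92 molecules began at 1 position. PCH2, which encodes a meiotic checkpoint ATPase, had the opposite shape: 38 start sites, but 123 of 172 molecules ended at 1 position. Most ends of PCH2, this position included, lay before A-rich genome sequence, where cDNA priming inside an RNA can also give an end. ODC2 and PCH2 were chosen after their values were seen.

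Along the ORF, antisense starts lay on both sides of the stop codon, and the inside starts were spread over the whole coding span. Starts past the stop codon made up 50.2% (49.6 to 50.8) of the antisense molecules and starts inside the ORF 49.8%. When each ORF was divided into 5 equal parts from start codon to stop codon, starts fell by 6.66%, 9.08%, 5.96%, 8.72% and 19.4% of molecules into the parts in that order. The part next to the stop codon held the largest share of any single part, and the other 4 together held more. NRG2 and YCH1 alone gave 18.9% of the starts in the first and second part.

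The ends lay further toward the start codon, and most of them stayed inside the ORF. Ends past the start codon made up 33.8% (33.2 to 34.4) of molecules. Inside the ORF the 5 parts held 3.99%, 7.30%, 11.1%, 15.6% and 28.3% of the ends, from start codon to stop codon. The most common arrangement was a start past the stop codon with an end inside the ORF, at 40.3% of molecules. Both ends inside made up 25.9%, and an inside start with an end past the start codon 23.9%. Molecules that covered the whole ORF were the smallest class, at 9.92%. The profile of starts and ends shows these positions in finer steps.

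**Figure D1:**
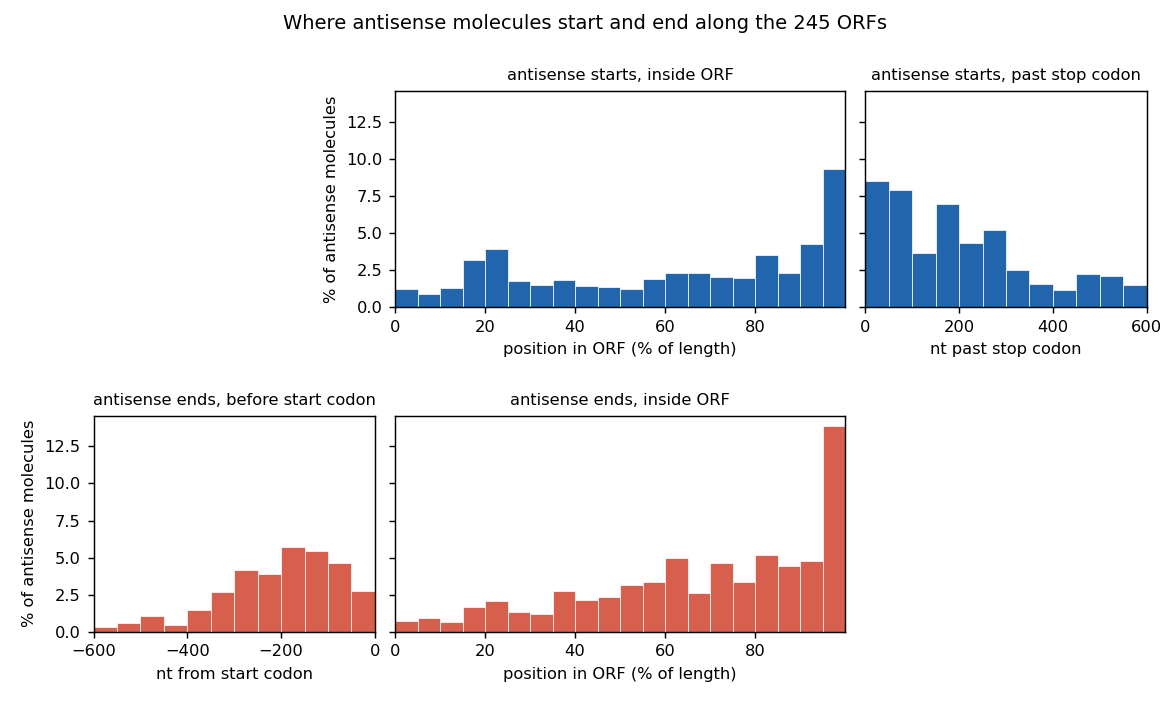
Share of the 24312 antisense molecules that start (blue, upper row) or end (red, lower row) in each bin along the 245 ORFs, with 50-nt bins outside the ORF and bins of 5% of ORF length inside it; the panels outside the ORF show 600 nt. Starts reach 9.30% in the last bin before the stop codon and 8.53% in the first bin past it, and ends reach 13.9% in the last bin before the stop codon.

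The antisense molecules were short relative to the ORFs. Their median length was 542 nt and the longest had 3296 nt, while the ORFs had a median length of 1431 nt. Sense molecules often did not cover the ORF either, and 165 of the 245 ORFs (67.3%) had at least 1 that did. HSF1 had 9 such molecules among 180 sense molecules, and UPS3 116 among 121. Whether long RNA was captured as well as short RNA was not tested, so short length is not read as particular to antisense RNA. The median overlap with the ORF was 419 nt when taken per ORF, with a range of 2 to 1479 nt. In 32 ORFs (13.1%) the median overlap was below 100 nt. Among those 32 ORFs the overlap lay at the stop codon end in RPL19B, with a median of 19 nt, and in THI21, with 2 nt. In YCH1 it lay at the start codon end, with a median of 86 nt.

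By their most used start, 116 ORFs (47.3%, 41.2 to 53.6) had antisense RNA from past the stop codon and 129 from inside. The outside starts lay a median of 156 nt past the stop codon, with quartiles of 51.2 and 264.5 nt. The inside starts lay a median of 372 nt before the stop codon, and the farthest lay 8555 nt before it. Of the inside starts, 52 lay in the part of the ORF next to the stop codon, and 15, 22, 17 and 23 in the parts from the start codon onward. In 61 ORFs no antisense molecule started past the stop codon, and in 26 ORFs all of them did. Most ORFs thus mixed both kinds of start in differing proportions.

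LSB6, a phosphatidylinositol 4-kinase gene, had 452 antisense molecules and 37 sense molecules. Its most used antisense start lay 45 nt past the stop codon, and 88.1% of starts lay within 25 nt of it. Most of its antisense RNA (253 of 452) ended at 1 position, 1113 nt into an ORF of 1824 nt. NGK1, a hexokinase-type sugar kinase gene, had a looser pattern with 432 antisense molecules from 41 start sites to 63 end sites. SWI3, which encodes a subunit of the SWI/SNF chromatin remodeller, had 338 antisense molecules, of which 98.2% started past the stop codon and 193 ended at 1 position, 2082 nt into an ORF of 2478 nt. PDC2, a transcription factor gene for pyruvate decarboxylase and thiamine genes, and HEH2, an inner nuclear membrane protein gene, also had starts past the stop codon and ends inside the ORF. PDC2 had 254 antisense and 109 sense molecules, with 94.1% of antisense starts past the stop codon. HEH2 had 275 and 194, with 86.5%.

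UPS3 and PLN1 stood apart from these by antisense RNA that ran through the whole ORF. UPS3 encodes a mitochondrial protein, and 93.5% of its 367 antisense molecules covered the ORF of 540 nt. PLN1, a lipid droplet protein gene, had 337 antisense molecules, and 85.8% covered its 852 nt. Whole-ORF coverage above 50% was seen in 20 ORFs, and 58 ORFs had at least 1 covering molecule. ADH2, the glucose-repressed alcohol dehydrogenase gene, had 179 antisense and 38 sense molecules with 76.5% covering. ILV6, which encodes the regulatory subunit of acetolactate synthase, had 108 antisense molecules with 64.8% covering and 2739 sense molecules. Covering antisense RNA therefore occurred over ORFs of low and of high sense level.

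Among starts inside the ORF, the starts near the start codon gave antisense RNA that left the ORF through its promoter side. NRG2, a repressor gene of glucose-repressed genes, had 450 antisense and 331 sense molecules. Its most used antisense start lay 155 nt into the ORF of 663 nt, and 95.6% of the molecules ended past the start codon. YCH1, a phosphatase gene, had 311 antisense and 584 sense molecules, with the most used start 86 nt into the ORF and 100% of ends past the start codon. YNL143C and PET130 had 110 and 92 antisense molecules that also all ended past the start codon. Over the 15 ORFs with the most used start in the first part of the ORF, the median share of ends past the start codon was 96.0%, and over the 22 ORFs of the second part it was 86.1%. The part played by the short distance to the start codon was not tested.

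Starts deeper in the ORF mostly gave RNA with both ends inside it. HSF1, the gene of the heat shock transcription factor, had 262 antisense and 180 sense molecules, and 0% of its antisense molecules started past the stop codon or ended past the start codon. Its most used start lay 234 nt before the stop codon. PTI1, which encodes a subunit of the cleavage and polyadenylation factor, had 204 antisense molecules from a start 222 nt before the stop codon, of which 15.2% ended past the start codon. BPT1, an ATP-binding cassette transporter gene of 4680 nt, had 124 antisense molecules from a start 2313 nt before the stop codon, and ESP1, the separase gene of 4893 nt, had 88. Neither had a molecule that ended past the start codon. JEM1, an endoplasmic reticulum chaperone gene, had 171 antisense molecules and likewise no end past the start codon. SFK1 lay at the other end of this spread, since 98.5% of its 196 antisense molecules ended past the start codon. However, 68.9% of its ends were A-rich, meaning that the 10 nt of genome after them held at least 6 A.

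**Figure D2:**
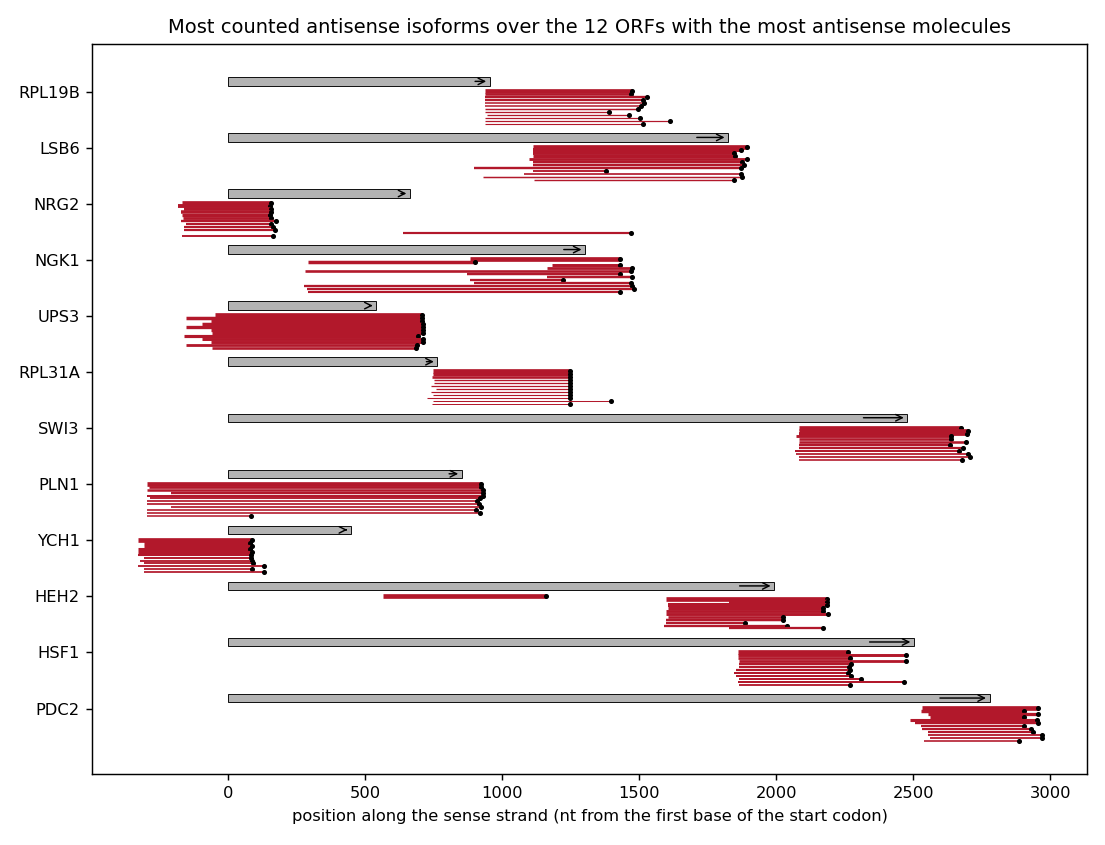
The 12 most counted antisense isoforms (red lines) over each of the 12 ORFs with the most antisense molecules (grey boxes, arrow toward the stop codon), with the antisense start as a black dot and line width scaled to the count within each ORF; the axis is the distance in nt from the start codon on the sense strand. The isoforms of UPS3 and PLN1 span the ORF, those of NRG2 and YCH1 leave it past the start codon, and those of RPL19B and RPL31A overlap its last bases.

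A-rich genome sequence can prime cDNA synthesis inside an RNA, so ends of this kind were counted. They made up 15.4% (14.9 to 15.8) of the antisense molecules and 20.7% of the sense molecules that covered a full ORF. In 29 ORFs more than 50% of antisense ends were A-rich, including SFK1, PTK1 with 67.3%, ARO10 with 59.5% and PCH2 with 72.7%. In 10 of these 29 ORFs the most used end lay inside the ORF. Without A-rich ends, 186 of the 245 ORFs kept 50 molecules.

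The end position also set whether antisense RNA reached the promoter of the sense transcript. More than 50% of antisense molecules ended past the start codon in 84 ORFs, and none did in 79. In the 87 ORFs with the most used end past the start codon, that end lay a median of 195 nt before it (14 to 612). Of 200 ORFs with a known most used sense start, 56 (28.0%, 22.2 to 34.6) had more than 50% of their antisense ends past it. No minimum count was set for such a start, and the lowest sense count among these ORFs was 1. The same holds for the most used sense starts of neighbours below. The median sense count of those 56 ORFs was 152 and that of the other 144 was 117. Split by the start codon instead, the order was the other way, with a median of 76.5 sense molecules in the 84 ORFs and 94 in the other 161. The 56 ORFs were also shorter, with a median of 829.5 nt against 1609.5 nt.

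Sense RNA of the 245 ORFs ran from 0 to 31456 molecules per ORF, against a highest count of 204300 among other ORFs. A sense molecule was counted whether or not it covered the ORF, so a sense count is not a count of full-length mRNA. At LSB6 3 of 37 sense molecules covered the ORF, at NGK1 2 of 36 and at RPL19B 27349 of 31456. The median was 94 sense molecules (quartiles 37 and 211), against 119 (35 and 357) for the 5757 other ORFs. No sense molecule was found for 10 ORFs (4.08%, against 8.69% of other ORFs), and at least 1000 were found for 18 (7.35%, against 11.4%). Both extremes of sense level had lower shares than among other ORFs, with intervals that overlapped for the high extreme (4.70 to 11.3 and 10.6 to 12.2) and not for the low one (2.23 to 7.35 and 7.98 to 9.44). ORFs with 10 to 49 sense molecules belonged to the set in 5.51% of cases (4.20 to 7.19), those with 0 in 1.96% (1.07 to 3.57) and those with at least 1000 in 2.67% (1.70 to 4.19). The 510 ORFs with 0 sense molecules had a median of 0 antisense molecules. Some of them, such as ENA2 and YBL100W-B, had no molecule on either strand. Whether reads could be placed on such ORFs was not tested, so nothing is read from the low extreme.

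Length moved with membership. The median ORF of the set had 1431 nt against 1191 nt for other ORFs, and 31.0% (25.6 to 37.1) of the set exceeded 2000 nt against 21.7%. A longer ORF has more span to overlap. Within windows of length the sense level was compared again. Up to 500 nt, the median sense count was 38 in the set and 100 in other ORFs. Above 500 and up to 1000 nt it was 250 and 252.5, above 1000 and up to 2000 nt 66.5 and 104, and beyond 2000 nt 93.5 and 88. The set had the clearly lower median in the first and the third of these windows, and a slightly higher one in the longest.

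Antisense molecules outnumbered sense molecules in 117 of the 245 ORFs (47.8%, 41.6 to 54.0). Other ORFs did so in 6.18% of cases, but the minimum of 50 antisense molecules used the same count, so nothing is read from this difference. MER1, which encodes an activator of meiotic splicing, had 212 antisense molecules and no sense molecule, where a count of 0 allows up to 4.94e-05% of all molecules. PCH2 had 172 and no sense molecule. GAC1, a regulator gene of protein phosphatase 1 in glycogen metabolism, had 95 and no sense molecule. LSB6, NGK1 and SWI3 had 37, 36 and 51 sense molecules under 452, 432 and 338 antisense molecules. At the other end stood 3 ribosomal protein genes, RPL19B with 31456 sense molecules, RPL31A with 24629 and RPL34A with 23581, and VMA11, a vacuolar ATPase subunit gene, with 11606. GAC1 and VMA11 were chosen after their values were seen.

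**Figure D3:**
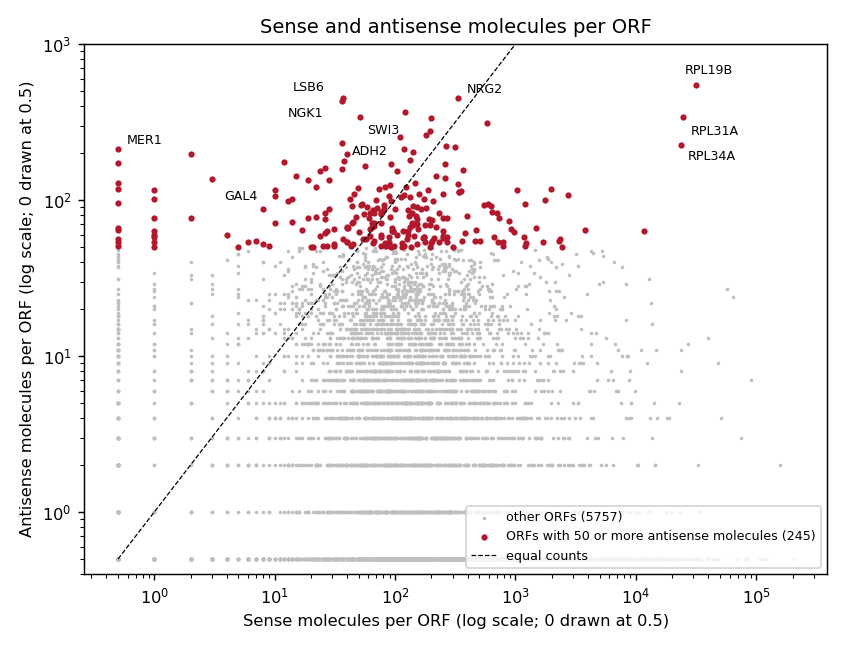
Antisense against sense molecules for each of 6002 ORFs on log axes, with counts of 0 drawn at 0.5; red points are the 245 ORFs with at least 50 antisense molecules, grey points the other 5757, and the dashed line marks equal counts. The red points spread from 0 sense molecules (MER1) to 31456 (RPL19B), and 117 of them lie above the line.

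The 3 ribosomal protein genes shared a layout. Their most used antisense starts lay 518, 483 and 486 nt past the stop codon in RPL19B, RPL31A and RPL34A. All of their 544, 339 and 224 antisense molecules started past the stop codon, and the median overlap with the ORF was 19, 18 and 13 nt. In RPL19B 476 of 544 molecules ended at 1 position, 936 nt into an ORF span of 954 nt. The antisense RNA therefore lay over the region past the stop codon and ended just inside the ORF. With a required overlap of 100 nt, none of these 3 genes was among the 199 ORFs that remained.

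The neighbour on the side of the stop codon lay on the same strand (tandem) in 163 ORFs and on the opposite strand (convergent) in 82. Tandem neighbours made up 66.5% (60.4 to 72.1) of the set and 47.4% (46.1 to 48.7) of other ORFs. This share depended on the rule, which sets aside RNA over an ORF on its own strand. A convergent neighbour is such an ORF, so its own transcripts that read into the examined ORF were not counted. Summed over ORFs, the molecules set aside in this way were 380655 opposite-strand molecules over ORFs with a convergent neighbour and 28432 over those with a tandem neighbour. With them counted, 23.5% of ORFs with a convergent neighbour and 6.54% of those with a tandem neighbour had 50 or more opposite-strand molecules, and tandem neighbours made up 20.7% of the resulting 915 ORFs. The tandem share thus describes only antisense RNA outside known ORFs, and it turned round when all opposite-strand RNA was counted. How far the rule alone sets this share was not tested.

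Where the neighbour was tandem, antisense starts past the stop codon were set against the neighbour's most used sense start. The gap to the neighbour's ORF had a median of 446 nt (quartiles 305 and 683.5 nt) over the 163 ORFs. This gap limits how far a start within it can lie from the neighbour. How far the gap alone sets the distances below was not tested. In 88 of the 163 ORFs the most used start lay past the stop codon, and the neighbour's most used sense start was known for 81. The antisense start lay a median of 225 nt upstream of that sense start, on the opposite strand, with quartiles of 168 and 340 nt. The distance was between 0 and 300 nt upstream in 51 of 81 ORFs (63.0%, 52.1 to 72.7), above 300 nt in 24, and 6 antisense starts lay inside the neighbour's transcript. Sense and antisense starts in this range face away from each other. LSB6 lay 253 nt from the start of CHS6, UPS3 225 nt from that of ATC1, PLN1 153 nt from that of YKR045C and ADH2 345 nt from that of YME2. CHS6, ATC1, YKR045C and YME2 had 206, 45, 160 and 165 sense molecules. The 51 ORFs were 20.8% (16.2 to 26.3) of the set.

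**Figure D4:**
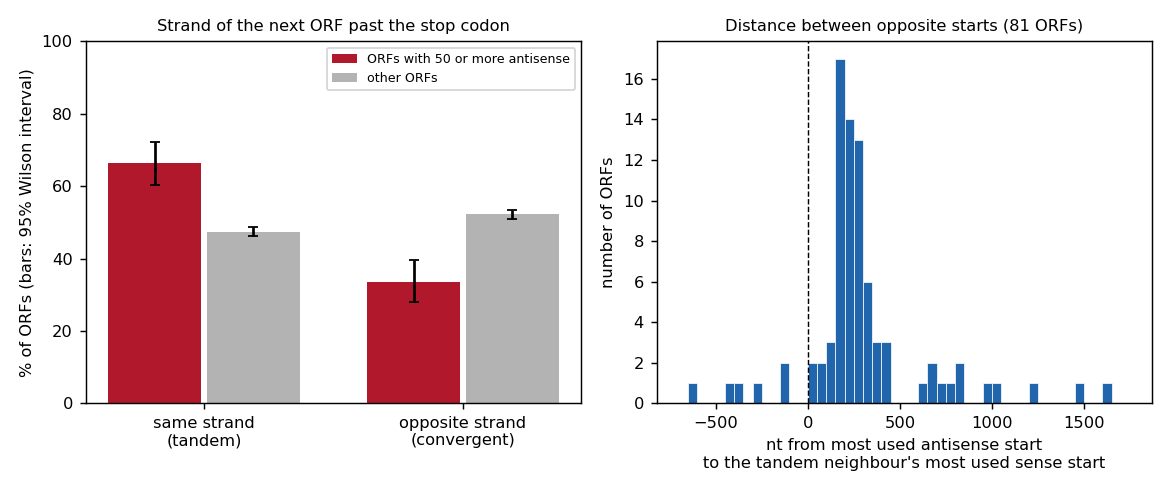
Left, percent of ORFs whose next ORF past the stop codon lies on the same or the opposite strand, for the 245 ORFs (red) and other ORFs (grey), with 95% Wilson intervals; right, number of ORFs by distance in nt between the most used antisense start and the tandem neighbour's most used sense start, for 81 ORFs with a start past the stop codon, where positive values lie upstream of the neighbour. The tandem bars stand at 66.5% and 47.4%, and the distances gather around their median of 225 nt.

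Where the neighbour was convergent, 28 of 82 ORFs had their most used antisense start past the stop codon, a median of 199.5 nt beyond the neighbour's stop codon. The neighbour's own transcripts could be set against that start in 27 of them, counting only molecules that reached the neighbour's stop codon. In 11 of the 27, more than 50% of the neighbour's molecules so counted ended past the antisense start, and in 10 the start lay upstream of their median end. MIC26, PMT7 and DIE2 belonged to these, with antisense starts 19, 18 and 6 nt past the neighbour's stop codon. Of the neighbour's molecules so counted, 100% read past the start. At such short distances a share near 100% follows largely from counting only molecules that reach the stop codon. These 3 were chosen after their values were seen. NGK1, SWI3 and RPL31A lay on the other side. The start at SWI3 lay 176 nt past the stop codon of RPL17B, which had 27668 sense molecules. Of those that reached the RPL17B stop codon, 0.573% ended past the antisense start. At NGK1 the start lay 212 nt past the stop codon of VMA6, where 0.0518% of 13521 molecules ended past it. Starts in convergent regions thus lay within the neighbour's transcripts at some ORFs and beyond nearly all of their ends at others.

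On the side of the start codon, neighbours were tandem in 53.5% of the set (47.2 to 59.6) and 47.7% of other ORFs. Antisense ends past the start codon were 39.6% of molecules where that neighbour was tandem and 27.1% where it was divergent, meaning transcribed away from the ORF. RNA that ends past a divergent neighbour's start codon overlaps an ORF on its own strand and is not counted, so these shares are limited by the rule as well. In 33 ORFs with a divergent neighbour the most used antisense end lay past the start codon, and in 25 of them it fell short of the neighbour's most used sense start, by a median of 283 nt over all 33. The spaces around the ORFs were slightly wider than elsewhere, with a median of 380 nt against 307 nt to the next ORF past the stop codon. Before the start codon the medians were 488 and 453 nt.

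For 11 ORFs the antisense molecules also overlapped an annotated noncoding RNA gene on their own strand, and in 8 of the 11 this was a snoRNA gene. SnoRNAs guide or assist the processing and modification of ribosomal RNA. In 7 of the 8 the most used antisense start was the annotated first base of the snoRNA. At RPL31A 280 of 339 molecules started at the first base of SNR63, at EFM3 150 of 174 at that of SNR3, at ODC2 92 of 92 at that of SNR35 and at ADE16, a purine synthesis gene, 190 of 223 at that of SNR30. KTR2 with SNR42, POP6 with SNR46 and LIN1 with SNR71 completed the 7, with 43 of 56, 38 of 98 and 34 of 98 molecules. At RPL31A, ADE16, EFM3 and ODC2 the most used end lay 246, 163, 143 and 127 nt past the annotated end of the snoRNA. The polyadenylated RNAs counted at these ORFs thus mostly began where the snoRNA begins, and their most used end lay downstream of the snoRNA. Only RNA that overlaps the ORF was counted, so RNA from the same starts that ended before the ORF was left out. The 8 ORFs over snoRNA genes were named after their values were seen, apart from RPL31A.

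The other noncoding genes were 3. At THI21 68 of 116 molecules started 3 nt upstream of the annotated start of SUT390. GAL4, the activator gene of galactose metabolism, had 106 antisense and 10 sense molecules over the annotated antisense RNA YNCP0002W. The most used starts of GAL4 were a tie of 2 sites, 3 nt upstream and 19 nt downstream of the annotated start, and 64 of 106 molecules started within 100 nt of it. Its most used end lay at -1900 nt relative to the annotated end, which is short of it. TAT1, an amino acid transporter gene, had 82 antisense and 139 sense molecules, but 3 of the 82 started within 100 nt of the annotated start of TBRT. GAL4, TAT1 and THI21 were likewise named after their values were seen.

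Genes with antisense RNA known from other work were examined in this glucose culture. HMS2, a transcription factor gene related to HSF1, was in the set with 58 antisense and 89 sense molecules. PHO5, the repressible acid phosphatase gene, had 32 antisense molecules, ZIP2 9, IME4 6, KCS1 4, GAL10 3, PHO84 2 and SUR7 1, and CDC28 had 0. At IME4, an RNA methyltransferase gene of meiosis, 16 more opposite-strand molecules overlapped an ORF on their own strand and were set aside. Of 9 such genes, 8 had some antisense RNA and 1 reached the minimum (11.1%, 1.99 to 43.5), beside 4.08% of all ORFs.

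Gene groups were counted next, beside the 4.08% of all ORFs in the set and a median of 3 antisense molecules over all ORFs. Of 58 meiosis and sporulation genes found, 5 were in the set (8.62%, 3.74 to 18.6): MER1, SPO22, SPO77, MSH4 and RED1. Their antisense counts were 212, 94, 63, 60 and 53, and their sense counts 0, 53, 1, 4 and 83. The group's median was 2 antisense and 4 sense molecules, against 3 and 118 over all ORFs. Antisense exceeded sense in 21 of the 58 genes and in 473 of all 6002 ORFs. Of 68 amino acid genes, 3 were in the set (4.41%, 1.51 to 12.2), namely ARO10 with 121, ILV6 with 108 and ARG1 with 54 antisense molecules. ARO10 acts in the breakdown of aromatic amino acids, and ARG1 encodes argininosuccinate synthetase. Of 137 cytosolic ribosomal protein genes, 3 were in the set and the group's median was 0 antisense molecules. Of 41 genes for use of other carbon sources under glucose repression, ADH2 was in the set. Mating (22 genes), phosphate (19) and stress response (36) had none, where the interval for a share of 0 still reached 14.9%, 16.8% and 9.64%. The interval of every group included 4.08%, and for the ribosomal proteins it ran from 0.747 to 6.24%.

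The rule read no sequence, but the most used start is itself set by counts, and the share below rose with the minimum count, from 80.9% (78.2 to 83.3) at 20 molecules to 93.1% (84.8 to 97.0) at 100. The initiator dinucleotide stood at 214 of 245 most used antisense starts (87.3%, 82.6 to 90.9). At the most used sense starts of 2386 ORFs with at least 50 full-ORF molecules it stood in 96.7%. Counting every distinct antisense start of the set lowered the share to 68.1% of 3881 sites. With every start displaced by 1 to 20 nt in either direction, the share reached at most 35.1%. Starts past the stop codon had it in 92.2% (85.9 to 95.9) and starts inside the ORF in 82.9% (75.5 to 88.5), and these intervals overlap.

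Short sequence elements were then searched in the 200 nt before each most used start, on both strands. The TATA element TATAAA was found before 39.2% (33.3 to 45.4) of the antisense starts, before 37.1% of the sense starts and in 20.6% of all windows of the same length in the genome. The windows were not matched for base composition. Before starts past the stop codon the share was 44.0% (35.3 to 53.0), and before starts inside the ORF 34.9% (27.2 to 43.4). In 88 of the 116 ORFs with a start past the stop codon the neighbour was tandem, and the window ran toward its sense start. A match of any element there was not assigned to either RNA. The Reb1 element TTACCCG was found before 4.08% (2.23 to 7.35) of antisense starts, 9.81% of sense starts and in 1.24% of genome windows. The Cbf1 element CACGTG was found before 2.04% (0.875 to 4.69) of antisense starts and 3.14% of sense starts. For TTACCCG the intervals of all antisense starts and of sense starts (8.68 to 11.1) did not overlap. Starts past the stop codon had TTACCCG in 6.03% (2.95 to 11.9), an interval that overlapped that of sense starts, and starts inside the ORF in 2.33% (0.794 to 6.61), an interval that did not.

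In the 100 nt before ends, the efficiency element TATATA, searched on the RNA's strand, was found for 31.4% (25.9 to 37.5) of the most used antisense ends, 48.5% (46.5 to 50.5) of sense ends and in 5.67% of genome windows. Ends past the start codon had it in 51.7% (41.4 to 61.9) and ends inside the ORF in 20.3% (14.7 to 27.2). Antisense ends outside the ORF had it about as often as sense ends, with overlapping intervals, and ends within coding sequence less often. These windows too were not matched for base composition, and its part in the difference was not tested. A match or its absence says only whether these letters stood in the window.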

How the data were processed

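TIF-Seq libraries of 2 samples, 1 group, were deposited as 1 table of raw counts per isoform (chromosome, strand, start, end, count), per the file headers. The authors pooled both samples in 1 count column, so replicates could not be compared. CASAVA, Novoalign 2.07.10 and the R64 build are named in the submitters' processing notes, with no order or role. Filters, duplicate removal and the way of pooling are not given in the sources used here. Columns of no sample numbered 0.

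Positions lay within R64 chromosomes and were set against its RefSeq annotation with Python 3.11.15, pandas 2.3.3, numpy 2.4.6, scipy 1.17.1 and matplotlib 3.10.9. An opposite-strand molecule was counted for every ORF it overlapped. A sense molecule was given to the ORF of greatest overlap on its strand. The most used site had the most molecules, with ties resolved to the lower position along the ORF. Shares have 95% Wilson intervals, and a count of 0 allows 3 molecules. No statistical test was run. The counting was tested on simulated data.

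ORFs, gene lists and naming rules were chosen with earlier results of these data known. Named genes are the 12 ORFs with most antisense molecules, the 3 highest per start class, neighbour class and gene list, the 3 with most sense molecules, those next to the minimum, and known antisense genes. Alternatives changed the minimum, the overlap, counting of isoforms, A-rich ends and noncoding genes. Counting opposite-strand molecules over ORFs of their own strand was added after the data were seen.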

Additional observations from a re-analysis of the deposited data

How the results depend on the processing

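Of 63 recomputed values, 36 stayed inside the interval of the reported value (for the number of ORFs, within 1.5 times) and 27 moved outside. The number of ORFs was 921 at a minimum of 20 molecules, 72 at 100, and 915 with opposite-strand molecules over an own-strand ORF also counted. Under that last setting 89.5% of molecules started past the stop codon, 15.8% ended past the start codon, 20.7% of ORFs had a tandem neighbour and 82.5% of most used starts had the initiator dinucleotide. The tandem share moved under no other setting. Starts past the stop codon made up 46.8% at a minimum of 20, 61.1% at 100, 47.5% with each isoform counted once, 52.3% with isoforms of at least 2 molecules, 42.4% with an overlap of at least 100 nt, 49.4% with the greatest overlap only, 47.9% without noncoding genes on the own strand, 51.6% without A-rich ends and 45.4% without the 10 ORFs with the most antisense molecules. Ends past the start codon made up 30.2% at a minimum of 100, 37.0% with an overlap of at least 100 nt, 35.3% without noncoding genes, 29.8% without A-rich ends and 33.0% without the top 10 ORFs. Antisense exceeded sense in 26.4% of ORFs at a minimum of 20, 62.5% at 100 and 39.2% with each isoform counted once. The initiator share was 80.9%, 93.1% and 91.8% under those settings. The intervals used for this treat molecules as independent, reflect counting error only and are narrow for shares of molecules. No paired analysis was possible because both cultures share 1 pooled column, and for the same reason no replicate could be left out.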
